A study of Homo sapiens with 6 samples.

Results

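Transcripts of 10 genes of pyroptosis and necroptosis were followed in CAL62 cells, an established human line from anaplastic thyroid carcinoma, a dedifferentiated thyroid cancer. The genes were GSDMB, GSDMC and GSDMD (gasdermins), CASP1 and CASP4 (inflammatory caspases), PYCARD (the inflammasome adaptor ASC), RIPK1, RIPK3 and MLKL (the necroptosis axis) and NINJ1 (which ruptures the plasma membrane late in lytic death). They were found by Ensembl identifier and make up 10 of the 39168 identifiers in the deposited count table; of rows that share an identifier the one with most counts was kept. The erianin group was wild-type CAL62 cells given 50 nM erianin, a bibenzyl from Dendrobium orchids, for 48 h, and the control group was the same cells given the matching amount of its solvent DMSO (0 nM erianin) for 48 h. Total RNA was sequenced from 3 libraries of each group. All of them came from 1 cell line, and the labels do not say that the replicates came from separate cultures, so p-values measure only the spread between these libraries, which may be technical. In bulk RNA a lower level cannot be told apart between a smaller share of cells with the transcript and less of it per cell.

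Pyroptosis is a lytic death in which a caspase cleaves a gasdermin, and the freed part of the gasdermin opens pores in the plasma membrane through which interleukin-1 family cytokines leave. CASP1 is switched on by inflammasomes built on PYCARD, CASP4 senses bacterial lipopolysaccharide directly, and both cleave GSDMD. Necroptosis runs from death receptors through the kinases RIPK1 and RIPK3 to MLKL, which permeabilises the membrane once phosphorylated. Cleavage and phosphorylation are changes of protein and do not appear in transcript levels.

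Libraries held between 25776301 and 34107727 counts on named genes. DMSO replicate 3 stood apart, with a mean Euclidean distance in log2 CPM (counts scaled to the library total) of 63.5 to the other DMSO libraries, against 37.3 between those and 60.2 on average from those to the erianin libraries. Fold changes, calls and group sums of the 10 genes are therefore given with and without it. Of markers of other cell types, the 6 lymphocyte genes summed to at most 0.0878 CPM in any library and 3 of them were listed at 0, as were AIF1 and TYROBP, 2 of 8 macrophage genes. A gene listed at 0 in all libraries may not have been counted at all, as EEF1G shows below, so these listings are not read as absence here or for any gene. The macrophage sum was 2.50 to 3.45 CPM in DMSO and 4.09 to 5.40 in erianin, and the endothelial sum (4 genes, none of them listed at 0 in all libraries) 0.431 to 0.674 against 1.15 to 1.49. Most of the macrophage sum was CD14, at a mean of 2.58 CPM in DMSO and 3.72 in erianin (edgeR adjusted p = 0.200). The fibroblast sum (5 genes, DCN listed at 0) was 0.642 to 1.05 against 0.885 to 1.12 CPM. Their part in the results was not tested. Of 8 thyroid follicular genes TSHR and NKX2-1 were listed at 0, and their sum of 644 to 742 CPM in DMSO and 421 to 435 in erianin was nearly all PAX8. The 5 keratin, EPCAM and vimentin genes summed to 3823 to 4333 CPM in DMSO and 3476 to 3614 in erianin.

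Among the 10 genes, RIPK1 alone passed the test over all 6 libraries, and it fell. RIPK1 (ENSG00000137275, chr6:3063991-3115187, plus strand, GRCh38 with GENCODE 29) encodes the kinase that decides between survival, apoptosis and necroptosis at the tumour necrosis factor receptor. Its level, in CPM scaled with TMM factors, was 39.0, 40.1 and 45.3 in DMSO replicates 1 to 3 and 28.7, 26.6 and 26.5 in the erianin replicates. Every erianin library lay below every DMSO library. Group means were 41.5 ± 3.35 CPM in DMSO and 27.3 ± 1.26 CPM in erianin (SD, n = 3 per group). The log2 fold change was -0.61 ± 0.10 (SE; adjusted p = 0.00875, edgeR quasi-likelihood test with Benjamini-Hochberg adjustment over 12821 genes). Without DMSO replicate 3 the fall was -0.54 ± 0.07 on the log2 scale (edgeR adjusted p = 4.58e-08). RIPK1 overlaps AL031963.3 and RNA5SP201 on the opposite strand. AL031963.3 has no row in the table and RNA5SP201 had 2 counts in all. The strand setting was not given, so the counting of shared reads is uncertain.

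The RIPK1 call weakened when any 1 erianin library was left out, while its size changed little. The edgeR adjusted p was 0.0500 (0.04999, just inside the threshold) without erianin replicate 1, 0.0619 without replicate 2 and 0.0645 without replicate 3. The log2 fold changes were -0.65, -0.59 and -0.59. Over all genes edgeR called 1912 with all 6 libraries and 333, 318 and 310 in these fits. With all 6 libraries 7.22% of all genes were called higher and 7.69% lower with erianin at an adjusted p under 0.05. The 0 genes higher and 1 lower out of the 7 of the 10 that could be tested are to be read against those shares. At an unadjusted p under 0.05 edgeR also gave 0 higher, and DESeq2 called 0 higher. With limma on TPM 0 were called higher, and 1 was higher at an unadjusted p under 0.05. The limma filter left out CASP1, whose mean lay under 1 TPM. RIPK1 also passed a second threshold that asks for an absolute log2 fold change over 0.5 as well, as did 8.73% of all genes tested. GSDMD, CASP1 and RIPK1 passed that threshold when DMSO replicate 3 was left out, as did 17.5% of all genes tested.

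**Figure D1:**
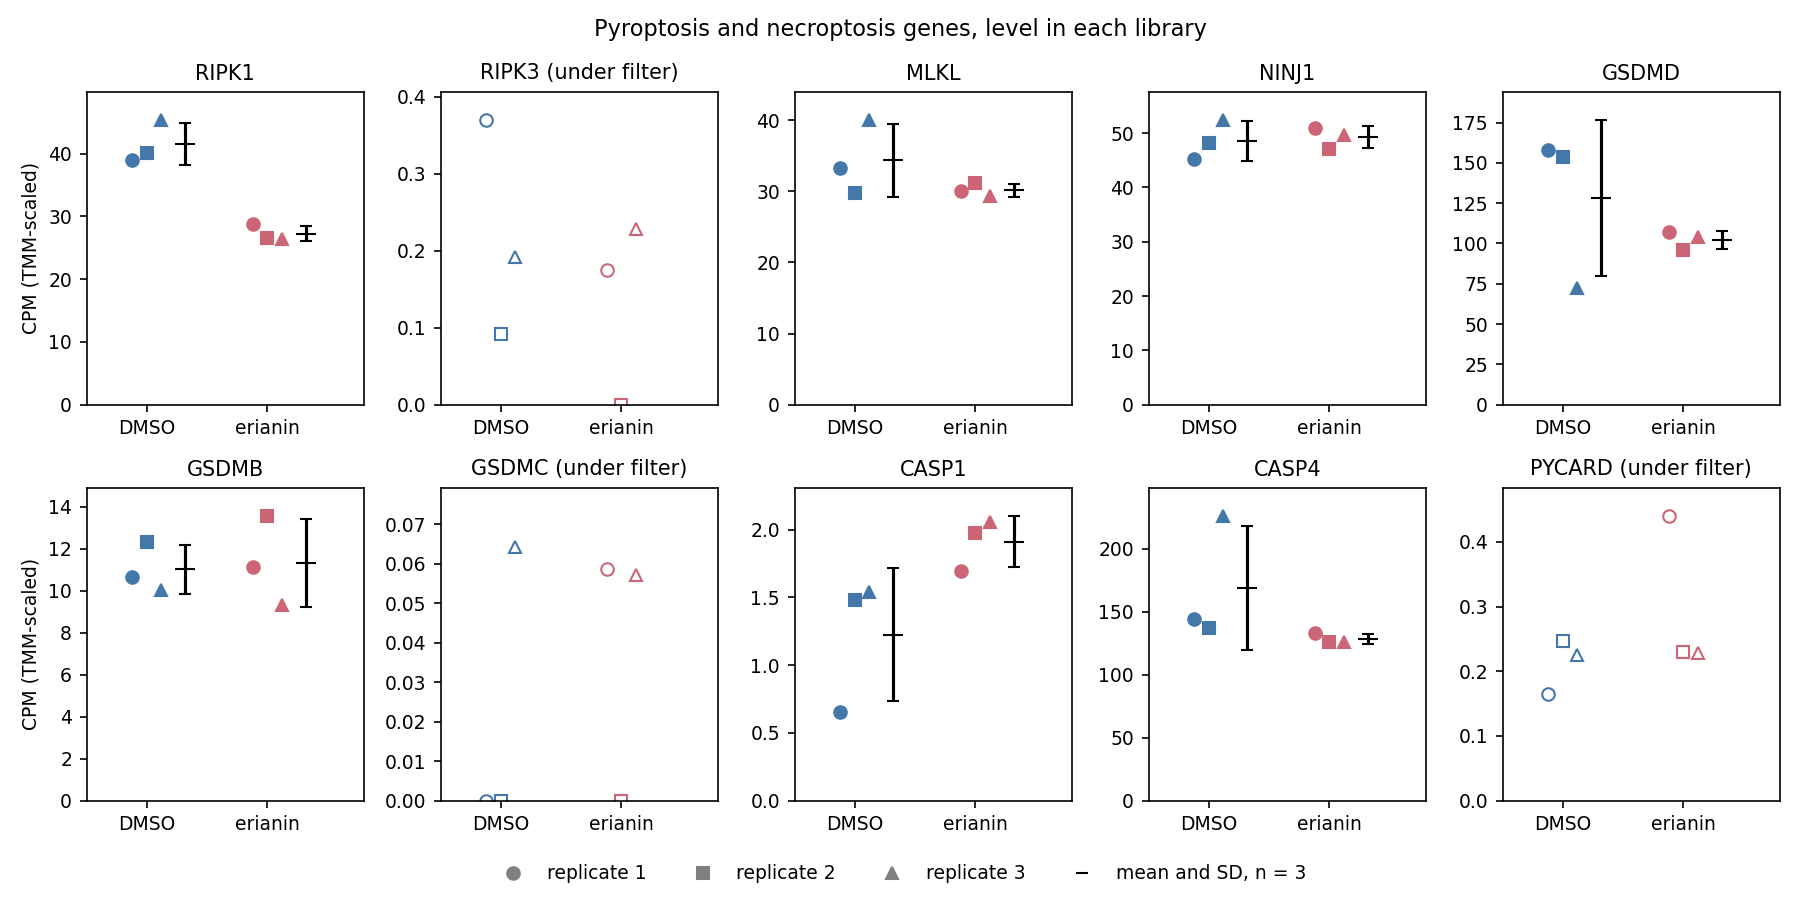
Level of each of the 10 genes in CPM (vertical axes, each from 0) in the 3 DMSO and 3 erianin libraries, with the symbol marking the replicate number and the black bar the mean and SD for tested genes; open points mark genes under the low-count filter. All 3 erianin libraries lie between 26.5 and 28.7 CPM for RIPK1, below all DMSO libraries, while DMSO replicate 3 is the lowest point for GSDMD (72.5 CPM) and the highest for CASP4 (226 CPM).

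The promoter of RIPK1 is shown because this is the gene that fell, and short stretches of 3 of its regulators because they were called and hold an ISRE or kappa-B match. Of the other regulators of this group that were called, BIRC3, CHUK and PELI1 have a promoter in the table and no match to any motif searched, SPATA2 has a GAS match only, and SHARPIN has no promoter there. Sequences are from RefSeq on build GRCh38.p14, 5′ to 3′ on the plus strand, and capitals mark the motif match. For RIPK1 the window is the 250 bases before one of its 3 RefSeq starts, chr6:3068128-3068377, and it overlaps no RIPK1 exon but an exon of the antisense gene AL031963.3 in GENCODE 29.
RIPK1: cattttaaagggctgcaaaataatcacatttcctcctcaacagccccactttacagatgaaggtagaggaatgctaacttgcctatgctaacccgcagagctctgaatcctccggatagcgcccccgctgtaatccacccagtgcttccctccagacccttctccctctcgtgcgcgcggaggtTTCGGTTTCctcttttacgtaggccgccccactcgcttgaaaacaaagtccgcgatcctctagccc
RNF31: gggctTTCGCTTTCactccccagg
TNFAIP3: acgtgactttGGAAAGTCCcgtggaaatc
CYLD: ttgacagagcGGAAAGTCCcttcggccgg

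Searched on both strands were the core of the interferon-stimulated response element (ISRE), GAAANNGAA, the interferon gamma-activated site (GAS), TTCNNNGAA, a kappa-B site of NF-kB, GGANTTTCC, and an AP-1 site, TGANTCA; the GAS and ISRE letters can overlap each other. RIPK1 held an ISRE core match, starting 66 bases before that start, and the same site also falls in the window of another of its starts. It was the only motif match among the 5 of the 10 genes with a promoter in the RefSeq table (RIPK1, CASP4, MLKL, PYCARD and NINJ1), and 6.88% of all 35116 promoter windows hold an ISRE core. RNF31 (chr14:24146625-24146648) held an ISRE core too, in a stretch that overlaps an exon of PSME2 on the other strand. TNFAIP3 (chr6:137867182-137867210) and CYLD (chr16:50741887-50741915) held the kappa-B letters, found in 1.45% of windows. The TNFAIP3 stretch overlaps an exon of TNFAIP3 itself in GENCODE 29, and CYLD also holds an ISRE core in 1 of its 3 windows. GAS and AP-1 matches each stood in 6.57% of windows. A match is a description of letters and not evidence that a factor binds there.

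RIPK3, the kinase that phosphorylates MLKL, was barely detected. RIPK3 (ENSG00000129465, chr14:24336021-24340045, minus strand) had 9, 3 and 6 counts in the DMSO libraries and 6, 0 and 8 in the erianin libraries, under the filter on low counts. Summed over the group this was 18 counts in DMSO, or 0.198 CPM of total counts (95% Poisson interval 0.118 to 0.314), and 14 in erianin, or 0.139 (0.0759 to 0.233), so no difference was detectable at this depth. The DMSO sum without replicate 3 was 12 counts, or 0.200 (0.103 to 0.350). For the 0 counts of erianin replicate 2, a fixed floor of 3 counts would be 0.0888 CPM of total counts, which is not a Poisson interval. The Poisson intervals cover counting error only. It overlaps AL096870.1 on the same strand, which has no row in the table, so the counting of shared reads is uncertain.

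MLKL, which forms the membrane lesion of necroptosis, was expressed in every library and did not pass the test. MLKL (ENSG00000168404, chr16:74671855-74700960, minus strand) stood at 33.3, 29.8 and 40.0 CPM in DMSO and 30.0, 31.1 and 29.3 CPM in erianin, and the groups overlapped. Its log2 fold change was -0.19 ± 0.12 (SE; edgeR adjusted p = 0.333), and -0.07 ± 0.07 without DMSO replicate 3 (edgeR adjusted p = 0.440). NINJ1 (ENSG00000131669, chr9:93121489-93134288, minus strand) was at 45.2, 48.1 and 52.3 CPM in DMSO and 51.0, 47.1 and 49.7 CPM in erianin. The groups overlapped, and the log2 fold change was 0.02 ± 0.09 (SE; edgeR adjusted p = 0.903), or 0.07 ± 0.06 without DMSO replicate 3 (edgeR adjusted p = 0.326).

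GSDMD, the gasdermin cleaved by CASP1 and CASP4, was high in both groups and its reading turned on 1 library. GSDMD (ENSG00000104518, chr8:143553207-143563062, plus strand) stood at 158, 154 and 72.5 CPM in DMSO replicates 1 to 3 and at 107, 96.2 and 104 CPM in erianin. DMSO replicates 1 and 2 lay above all erianin libraries and DMSO replicate 3 below all of them. With all libraries the log2 fold change was -0.32 ± 0.26 (SE; edgeR adjusted p = 0.459). Without DMSO replicate 3 GSDMD fell by 0.61 ± 0.05 on the log2 scale, from a mean of 156 CPM (edgeR adjusted p = 1.18e-12).

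GSDMB (ENSG00000073605, chr17:39904595-39919854, minus strand), a gasdermin cleaved by granzymes, stood at 10.7, 12.3 and 10.0 CPM in DMSO and 11.1, 13.5 and 9.34 CPM in erianin. The libraries of both groups overlapped and the log2 fold change was 0.04 ± 0.16 (SE; edgeR adjusted p = 0.899), or -0.03 ± 0.12 without DMSO replicate 3 (edgeR adjusted p = 0.840). GSDMC (ENSG00000147697, chr8:129748196-129786888, minus strand) had 2 counts in all of DMSO, in replicate 3, and 4 in all of erianin, in replicates 1 and 3. These amount to 0.0220 CPM of total counts (95% Poisson interval 0.00267 to 0.0796) and 0.0397 CPM of total counts (0.0108 to 0.102), under the filter. In DMSO replicates 1 and 2 the sum was 0 counts, with an upper Poisson bound of 0.0616.

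The gasdermin GSDME was listed at 0 counts in all 6 libraries (ENSG00000105928, chr7:24698351-24758113, minus strand). EEF1G, a subunit of the translation elongation factor that every cell uses, was also listed at 0 in all 6 (it was chosen after its values were seen). The listing of GSDME is therefore not read as absence of its transcript, and no fold is given. GSDMA and PJVK, also gasdermins, were listed at 0 too.

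CASP4 (ENSG00000196954, chr11:104942866-104969436, minus strand) was at 144, 137 and 226 CPM in DMSO and 133, 126 and 126 CPM in erianin. All erianin libraries lay below all DMSO libraries, but the high mean of DMSO rested on DMSO replicate 3. The log2 fold change was -0.39 ± 0.18 (SE; edgeR adjusted p = 0.189), and without DMSO replicate 3 the size shrank to -0.13 ± 0.05 while the spread shrank more (edgeR adjusted p = 0.0137). With an offset that removes each library's trend on GC content, the value was -0.52 and passed (edgeR adjusted p = 0.0140).

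CASP1 (ENSG00000137752, chr11:105025443-105035250, minus strand), the inflammasome caspase, was expressed at a low level. It had 16, 48 and 48 counts in DMSO and 58, 69 and 72 in erianin, or 0.657, 1.48 and 1.54 against 1.70, 1.98 and 2.06 CPM. The groups did not overlap, though DMSO replicate 1 lay far below the other two. The log2 fold change was 0.61 ± 0.31 (SE; edgeR adjusted p = 0.221). It was 0.33 without DMSO replicate 1 (adjusted p = 0.381) and 0.78 ± 0.30 without DMSO replicate 3 (adjusted p = 0.0269), both by edgeR. CASP1 shares near-identical sequence with CARD16 on the same chromosome, so the split of reads between them is uncertain.

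PYCARD (ENSG00000103490, chr16:31201485-31203450, minus strand), the adaptor that recruits CASP1 to inflammasomes, had 4, 8 and 7 counts in DMSO and 15, 8 and 8 in erianin. Group sums were 19 counts, 0.209 CPM of total counts (95% Poisson interval 0.126 to 0.327), and 31 counts, 0.307 CPM of total counts (0.209 to 0.436). The intervals overlap and the gene was under the filter. Leaving out DMSO replicate 3 gave 12 counts in DMSO, or 0.200 (0.103 to 0.350). PYCARD lies opposite PYCARD-AS1, which was listed at 0. The strand setting was not given, so the counting of shared reads is uncertain.

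Among the 7 tested genes, the libraries of both groups did not overlap for 3 (RIPK1, CASP1 and CASP4), beside 38.7% of all genes tested. It was 4 without DMSO replicate 3 (GSDMD as well), beside 68.6% of all genes. The median log2 fold change was -0.19 over the 7, against 0.00 over all genes, and 3 of 7 were above 0. Without DMSO replicate 3, 1 of the 7 was called higher (CASP1) and 3 lower (CASP4, GSDMD and RIPK1). This lies beside 27.5% of all genes called higher and 27.7% called lower in that fit. The gene called higher depended on the method: without DMSO replicate 3 CASP1 had an adjusted p of 0.140 with edgeR and the GC offset and 0.0595 with DESeq2. NINJ1 was called higher there with the GC offset (0.18 on the log2 scale, edgeR adjusted p = 0.0145) and with limma on TPM (0.23, adjusted p = 0.0196). The filter of limma on TPM left out CASP1. Of the 3 called lower, CASP4 also depended on the method. Without DMSO replicate 3 it was 0.026 with limma on TPM and did not pass (adjusted p = 0.650). The median of all genes in that fit was 0.13. GSDMD and RIPK1 passed there (limma adjusted p = 0.00267 and 0.00302).

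**Figure D2:**
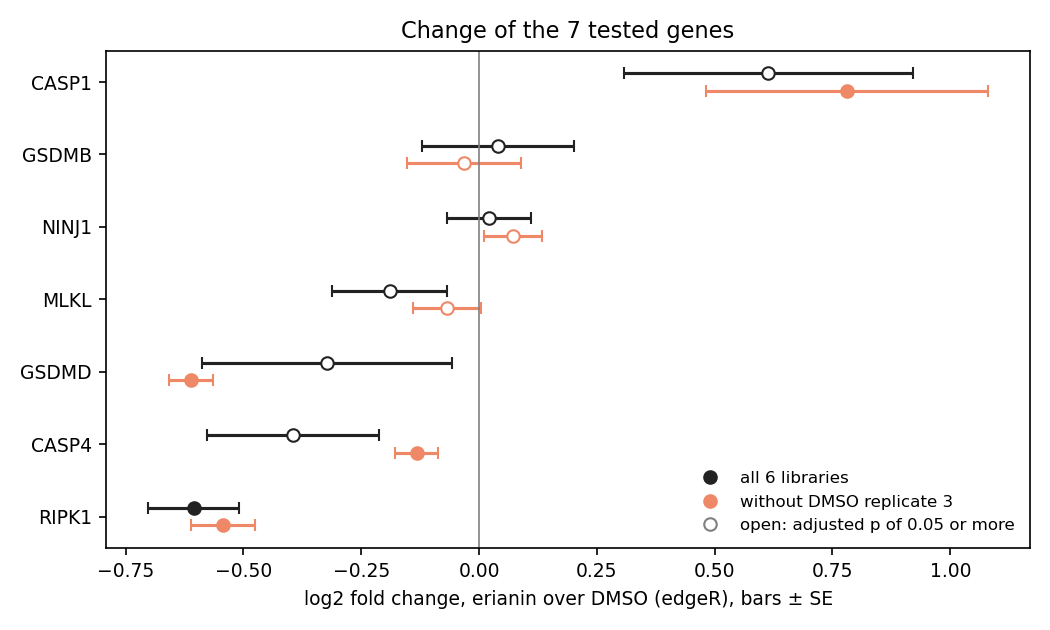
Log2 fold change of erianin over DMSO (horizontal axis, edgeR) for the 7 genes tested, with bars of 1 SE, for all 6 libraries (black) and without DMSO replicate 3 (orange); filled points have an adjusted p under 0.05. RIPK1 is filled in both, at -0.61 and -0.54, while GSDMD goes from -0.32 to -0.61 and CASP4 from -0.39 to -0.13.

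Set side by side per transcript length, in TPM (transcript abundance scaled by length and library), the pathway was uneven in these cells. CASP4 lay at 53.6 to 80.5 TPM over the 6 libraries and NINJ1 at 49.7 to 62.6, and these ranges overlapped. CASP4 was the higher in every DMSO library and NINJ1 in every erianin library. GSDMD lay at 18.7 to 44.3 TPM and overlapped RIPK1, at 18.6 to 26.4 TPM. MLKL was lower, at 13.4 to 16.3 TPM, and GSDMB lower again, at 2.63 to 4.25 TPM, neither overlapping its neighbour above. CASP1 at 0.241 to 0.855 TPM overlapped PYCARD at 0.286 to 0.852 TPM. RIPK3 reached at most 0.292 TPM and GSDMC 0.0657 TPM.

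Within a library, the TPM of RIPK1 was 84.8 to 349 times that of RIPK3, and that of MLKL 50.8 to 182 times, in the 5 libraries with a RIPK3 value above 0. CASP4 was 65.1 to 232 times CASP1. Both are ratios of levels within a library, which do not depend on its total. RIPK3 had only 3 to 9 counts in each of those 5 libraries, so the ratios to it are imprecise. On rows that name a gene, TPM summed to 59.1% of its nominal total in DMSO replicate 3 and 72.6% to 78.3% in the others. The TPM of rows that name no gene was not summed. As this share differed between libraries, TPM serves for differences between groups only as an alternative to the test on counts.

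**Figure D3:**
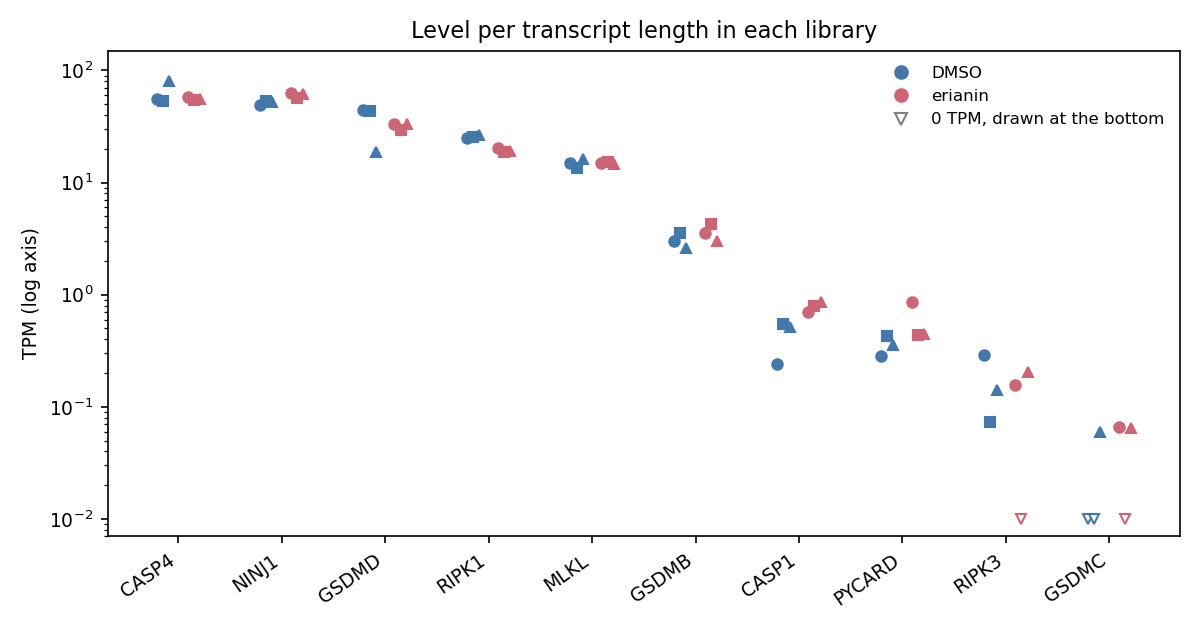
Level of the 10 genes per transcript length in TPM (log axis) in each DMSO (blue) and erianin (red) library, ordered by the median; open triangles at the bottom stand for 0. CASP4 and NINJ1 lie near 50 TPM and above, RIPK3 never above 0.292 TPM, and GSDMC never above 0.0657 TPM.

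Of 80 other genes of both pathways, 62 were tested, and 9 were called higher and 3 lower with erianin, beside 7.22% of all genes called higher and 7.69% lower. Their median log2 fold change was 0.08, against 0.00 over all genes. Without DMSO replicate 3, 26 of the 62 were called higher and 15 lower, beside 27.5% and 27.7% of all genes. The split of 9 and 3 became 9 and 8 with the GC offset and 15 and 1 with limma on TPM. Over all genes the split of 926 and 986 became 975 and 2004 with the GC offset, and 2024 and 273 with limma on TPM. The counts per role follow, to be read against 7.22% of all genes called higher and 7.69% lower. No role was tested against another.

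Of the regulators of RIPK1 and its complexes, mostly ubiquitin enzymes, kinases and their partners, 6 of 19 tested rose and 2 fell. TNFAIP3, the ubiquitin editor A20, rose from 33.0, 37.1 and 41.7 CPM to 62.4, 60.3 and 57.4 CPM, a log2 fold change of 0.69 ± 0.10 (SE; edgeR adjusted p = 0.00785). BIRC3 (cIAP2, which adds ubiquitin to RIPK1) rose by 0.69 ± 0.15 (adjusted p = 0.0245) and CYLD, a deubiquitinase of the same chains, by 0.42 ± 0.08 (adjusted p = 0.0177), both by edgeR. With the GC offset CYLD was 0.22 (edgeR adjusted p = 0.265), and 0.063 when DMSO replicate 3 was also left out (edgeR adjusted p = 0.354).

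SPATA2, which tethers CYLD to the receptor complex, rose by 0.33 ± 0.08 (edgeR adjusted p = 0.0274). CHUK, the kinase IKK alpha, rose by 0.63 ± 0.10 (edgeR adjusted p = 0.00914). PELI1, a ubiquitin ligase, went from 9.28, 12.6 and 12.6 CPM to 23.0, 23.4 and 21.4 CPM, 0.97 ± 0.14 on the log2 scale (edgeR adjusted p = 0.00656), with no overlap between groups. CYLD and SPATA2 are known to favour necroptosis, while TNFAIP3 and BIRC3 are known to hold it back. SPATA2 did not pass with the length offset (edgeR adjusted p = 0.0686) or without the filter (edgeR adjusted p = 0.0567).

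Of the linear ubiquitin assembly complex, which adds linear chains in the receptor complex, RNF31 (HOIP, its catalytic part) went from 50.2, 53.1 and 53.6 CPM to 36.8, 34.4 and 36.8 CPM, a log2 fold change of -0.54 ± 0.08 (SE; edgeR adjusted p = 0.00729). SHARPIN, its accessory part, fell by 0.41 ± 0.07 (adjusted p = 0.0139), while the third part RBCK1 (HOIL-1) did not pass, at -0.16 (adjusted p = 0.298), both by edgeR. RBCK1 was -0.25 without DMSO replicate 3 and passed too (edgeR adjusted p = 2.18e-06). With limma on TPM SHARPIN was -0.21 and did not pass (adjusted p = 0.144). MAPKAPK2 (MK2), which phosphorylates RIPK1, was at 0.03 (edgeR adjusted p = 0.869). IKBKG was not analysed here. The median of the 19 was 0.10.

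Of the necroptosis receptors and adaptors, 1 of 9 tested was called. TNFRSF1A, the main receptor for tumour necrosis factor, was at 219, 205 and 207 CPM in DMSO and 155, 160 and 162 CPM in erianin. It fell by 0.40 ± 0.07 on the log2 scale (SE; edgeR adjusted p = 0.00923), without overlap. With limma on TPM it was -0.20 and did not pass (adjusted p = 0.117). TNFRSF10B, a receptor for TRAIL, did not pass, at 0.07 (edgeR adjusted p = 0.675). Of 9 necroptosis effectors and partners, all tested, 0 were called by edgeR (2 at an unadjusted p under 0.05, and 1 called by DESeq2), and FKBP8 and HSP90AA1, those with the most counts, had log2 fold changes of -0.25 (adjusted p = 0.378) and 0.42 (adjusted p = 0.269). Both passed without DMSO replicate 3, FKBP8 at -0.46 and HSP90AA1 at 0.76 (edgeR adjusted p = 2.20e-11 and 9.34e-14).

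On the pyroptosis side, 2 of 3 cytokine genes tested rose, both encoding interleukin-1 forms. IL1A was 3.98, 5.39 and 4.43 CPM in DMSO and 7.14, 7.90 and 7.54 CPM in erianin, a log2 fold change of 0.71 ± 0.15 (SE; edgeR adjusted p = 0.0209). IL1B was 7.97, 8.81 and 10.2 CPM against 12.8, 12.4 and 12.3 CPM, a log2 fold change of 0.47 ± 0.12 (edgeR adjusted p = 0.0398). In neither gene did the groups overlap. IL1A did not pass with the GC offset (0.50, edgeR adjusted p = 0.0831) or the length offset (edgeR adjusted p = 0.0531), and IL1B not with the length offset (edgeR adjusted p = 0.0869) or without the filter (edgeR adjusted p = 0.0584). HMGB1, an alarmin, did not pass, at 0.14 (edgeR adjusted p = 0.401), but did at 0.26 without DMSO replicate 3 (edgeR adjusted p = 4.80e-06), and IL33 was listed at 0.

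Of proteases that feed into gasdermins, CASP8, the initiator caspase of death receptors, was at -0.17 ± 0.09 on the log2 scale and did not pass (SE; edgeR adjusted p = 0.222). It passed without DMSO replicate 3 at the same size (edgeR adjusted p = 0.0424) and with the GC offset at -0.31 (edgeR adjusted p = 0.0446). ELANE, neutrophil elastase, had 2 counts in DMSO and 1 in erianin, under the filter, and CTSG was listed at 0.

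Of 7 inflammasome sensors tested, NLRC4, the sensor of flagellin through NAIP proteins, was called, at 4, 6 and 6 counts in DMSO and 21, 20 and 14 in erianin. Its log2 fold change was 1.52 ± 0.36 (SE; edgeR adjusted p = 0.0313), and it rests on few counts. It did not pass without the filter (edgeR adjusted p = 0.0683). NLRP3, the most studied sensor, did not pass, at -0.11 (edgeR adjusted p = 0.573), but did at -0.22 without DMSO replicate 3 (edgeR adjusted p = 0.00371). IFI16, a DNA sensor, stood at 37.1, 38.3 and 84.9 CPM in DMSO and 54.0, 50.1 and 56.1 CPM in erianin. The log2 fold change was -0.0014 over the full set (edgeR adjusted p = 0.998). It turned to 0.50 when DMSO replicate 3 was left out (edgeR adjusted p = 5.82e-08).

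In the remaining roles edgeR called 0 of 4 tested inflammasome regulators, 0 of 5 guanylate-binding proteins and 0 of 5 membrane repair genes. At an unadjusted p under 0.05 there were 2, 0 and 2 of them, and DESeq2 called 1, 0 and 1. DPP8 and DPP9, proteases that hold NLRP1 and CARD8 in check, were at 0.08 and -0.08 (adjusted p = 0.724 and 0.453). GBP1 and GBP3, interferon-induced GTPases that coat bacteria, were at 0.32 and 0.21 (adjusted p = 0.543 and 0.463). CHMP2A and CHMP4B, of the membrane repair machinery that removes gasdermin and MLKL lesions, were at -0.09 and 0.16 (adjusted p = 0.519 and 0.177). GBP1 and GBP3 passed without DMSO replicate 3, at 0.77 (edgeR adjusted p = 3.40e-05) and 0.42 (edgeR adjusted p = 0.000179). DPP8 and CHMP4B also passed there, at 0.18 and 0.20 (edgeR adjusted p = 0.0454 and 0.000266), and DPP9 and CHMP2A did not. CARD18 was listed at 0, and TXNIP and CARD17 were not analysed here.

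**Figure D4:**
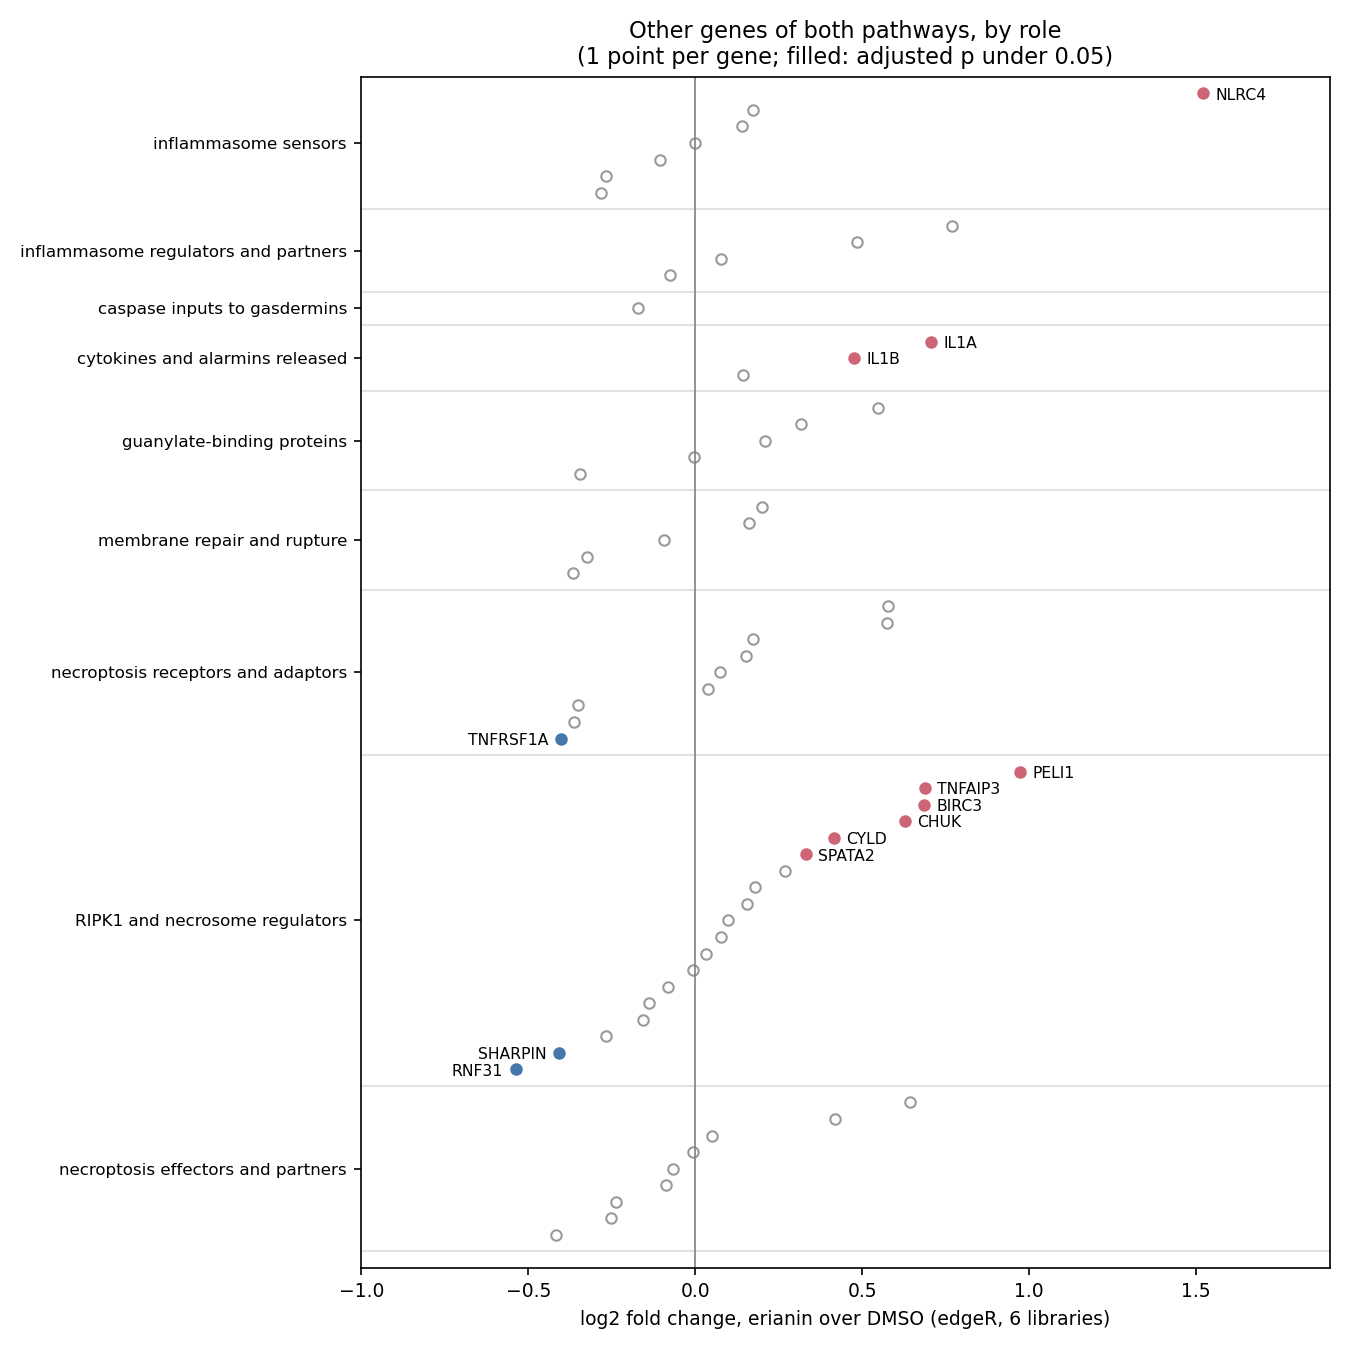
Log2 fold change of erianin over DMSO (horizontal axis, edgeR, all 6 libraries) for the 62 other pathway genes tested, 1 point each, grouped by role; filled and named points have an adjusted p under 0.05, red higher and blue lower. The named points run from RNF31 at -0.54 to NLRC4 at 1.52. Of the 12 named, 8 lie among the RIPK1 and necrosome regulators, the largest role with 19 of the 62 tested.

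These calls depended on the libraries kept, as did calls over all genes. Over all genes edgeR called 1912 with all 6 libraries, 7201 without DMSO replicate 3, and 310 to 906 without any 1 other library. Of the 62, 7 were called and also had an absolute log2 fold change over 0.5, beside 8.73% of all genes tested. The edgeR call remained in 5 of the 6 fits that leave out 1 library for PELI1, in 4 for TNFAIP3, in 3 for RNF31, CHUK and TNFRSF1A, in 2 for SHARPIN, CYLD and IL1A, and in 1, the fit without DMSO replicate 3, for BIRC3, IL1B, SPATA2 and NLRC4. In all of these fits each of the 12 kept its direction.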

How the data were processed

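RNA of CAL62 cells was sequenced in 6 libraries, 3 per group by the submitters' labels. The submitters' processing notes name fastp 0.23.2, STAR 2.7.10, featureCounts 2.0.1 and StringTie 2.2.1 and build GRCh38; the annotation and strand setting were not given in the sources used here. The authors deposited raw counts and TPM per gene. Of 65807 rows, 26480 named no gene and held at most 0.00515% of counts; they were left out. The counts were tested with edgeR 4.0.16 (TMM factors, filterByExpr by group, quasi-likelihood F test, R 4.3.3) with Benjamini-Hochberg adjustment over the 12821 genes that passed the filter, and called at an adjusted p under 0.05. The study used DESeq2, which was run as an alternative (1.42.0), as was limma 3.58.1 on log2(TPM + 1). SE is the fold change over the root of F. The scripts were tested on simulated data. The 10 genes, the 80 pathway genes and the marker lists were chosen with earlier results of these data known. Of the pathway list, 2 further genes are not reported here. Named were all 10, the pathway genes called, the 2 with most counts per role and those at 0. The labels do not say whether replicate numbers pair the libraries, so the main test used no pairing.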

Additional observations from a re-analysis of the deposited data

How the results depend on the processing

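RIPK1 fell in all 21 alternatives, with log2 fold changes between -0.69 and -0.37, and passed in 19; without erianin replicate 2 or 3 it did not, and edgeR then called 0 of the 10 genes, with 1 at an unadjusted p under 0.05. The genes called among the 10 numbered 0 to 4 with 1 library left out (4 without DMSO replicate 3), 2 with the GC offset (CASP4 joined RIPK1), and, chosen after seeing the data, 4, 3 and 3 without DMSO replicate 3 under the GC offset, limma on TPM and DESeq2 (the gene called higher was NINJ1 in the first and second, and 0 were higher in DESeq2). The pathway genes called ranged from 0 (without erianin replicate 2, edgeR, with 15 at an unadjusted p under 0.05) to 41 (without DMSO replicate 3), with 34, 40 and 34 in those 3 fits, 5 with the replicate block and 7 with a fold threshold of 0.5 on the log2 scale. All genes called ranged from 310 (without erianin replicate 3) to 7201 (without DMSO replicate 3), with 745 under the block, 2979 (975 higher, 2004 lower) with the GC offset and 1119 with the fold threshold. The split of 926 higher and 986 lower was 2024 and 273 with limma on log2(TPM + 1), 776 and 1513 with the gene length offset, and 1161 and 757 with upper-quartile factors. On the TPM scale the median of all genes was 0.18 rather than 0.00, so changes there read higher by about that much. The labels do not say whether libraries that share a number are paired. Their deviations from the group means correlated at 0.00138, 0.0253 and -0.0329. DMSO replicate 3 stood apart and shifts the DMSO mean, so these values cannot decide on pairing. With the block RIPK1 was still called (edgeR adjusted p = 0.0420) at -0.60. Of the 12 pathway genes called, IL1A, IL1B, NLRC4, TNFRSF1A, CYLD, SHARPIN and SPATA2 were not called with the block.

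Values whose sign turned were mostly near 0, and the cause was not tested. With the GC offset GSDMB was -0.031, NINJ1 -0.0065, DPP8 -0.050 and HMGB1 -0.022, and with the length offset NINJ1 was -0.11, CHMP4B -0.065, MAPKAPK2 -0.076 and IFI16 0.0071. IFI16 was 0.047 with upper-quartile factors, 0.0080 with a minimum of 10 counts per library and 0.11 with the replicate block. With limma on log2(TPM + 1), filtered or not, MLKL was 0.017, NLRP3 0.087, IFI16 0.28, DPP9 0.12, CASP8 0.023, CHMP2A 0.11 and RBCK1 0.047, and with a pseudocount of 0.1 they were 0.018, 0.099, 0.31, 0.12, 0.026, 0.11 and 0.047. Without DMSO replicate 3, limma on TPM gave CASP4 0.026, MLKL 0.084, IFI16 0.60, DPP9 0.085 and CHMP2A 0.15. DESeq2 without it gave GSDMB -0.036, IFI16 0.49, TNFRSF10B -0.035 and MAPKAPK2 -0.087. The GC offset without it gave GSDMB -0.12, IFI16 0.20, DPP8 -0.034, DPP9 0.019, HMGB1 -0.034, CHMP2A 0.028, TNFRSF10B -0.035 and MAPKAPK2 -0.039. With 1 library left out, GSDMB ranged from -0.11 to 0.16, NINJ1 from -0.033 to 0.073, IFI16 from -0.21 to 0.50, TNFRSF10B from -0.028 to 0.15 and MAPKAPK2 from -0.080 to 0.089. Depth limits RIPK3, PYCARD and GSDMC, with at most 31 counts in a group, and NLRC4.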
